A study of Homo sapiens with 8 samples.

Results

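Cyclins are proteins that bind and switch on cyclin-dependent kinases (CDKs), serine/threonine kinases that are inactive alone. D-type cyclins with CDK4 or CDK6, and E-type cyclins with CDK2, drive cells through G1 and into S phase, and A- and B-type cyclins with CDK2 and CDK1 act in S phase and mitosis. Another branch of the family (cyclins C, H, K, L and T with CDK7, CDK8, CDK9, CDK12, CDK13 and CDK19) works on RNA polymerase II and on splicing. N6-methyladenosine (m6A) is a methyl mark that is placed on mRNA by the METTL3 and METTL14 complex, mostly near stop codons and in 3′UTRs, in a sequence context with GGAC as its best known form, and it is read by proteins that act on mRNA decay and translation.

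The genes described here are the cyclins and CDKs, taken by a rule on the symbol: CCN followed by a letter and at most 6 characters long, or CDK followed by a number only. This family was chosen with earlier results of these data known. The rule found 48 genes, of which 47 (28 cyclins and 19 CDKs) were in the expression table of 19475 entries and 34 had a peak in at least 1 list of m6A peaks. CCNYL2 was in the peak lists only. The cells were HCT116, a line from a human colorectal carcinoma. They received PBS (Control) or Fusobacterium nucleatum, an anaerobic bacterium, at 100 bacteria per cell for 2 h. The 8 libraries were 2 of unselected RNA fragments (input) and 2 of fragments selected by an antibody to m6A (IP) for each of Control and F. nucleatum. All came from this 1 line, and the methods name the replicates as biological, but no source used here says whether cultures were handled on separate days. Expression was given as FPKM, fragments scaled by transcript length and by the mapped total, in the 4 input libraries. The peaks came as 1 list per IP library with its input.

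Of 8 epithelial markers, 7 were at or above 1 FPKM on average and CDX1 was listed at 0. Of 11 markers of blood, fibroblast and endothelial cells, 1 reached that level (COL1A1), while COL1A2 and DCN were listed at 0. The 4 lists held 17039 to 18365 peaks, and no read count was given, so the sequencing depth was unknown.

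The sequences that the m6A results turn on are 24-nt windows around the GGAC closest to the middle of a peak region, read 5′ to 3′ on the RNA strand from GRCh37 (hg19), with that GGAC in capitals. The CCND1 stop codon window holds another GGAC, left in lower case. The first 3 are from CCND1, on the plus strand of chromosome 11, in the region over the stop codon (chr11:69466031-69466054), in the middle of the 3′UTR (chr11:69467909-69467932) and near the 3′ end (chr11:69468966-69468989).
CCND1 stop codon region: tgcgggacgtGGACatctgagggc
CCND1 middle of the 3′UTR: gtgtgagggaGGACaggcgggagg
CCND1 3′ end: gggccttgagGGACgctttgtctg
The next 3 lie in regions whose calls differed between the groups or between lists: the 5′UTR of CCNE1 (chr19:30303013-30303036, plus strand), the first exon of CCNL2 (chr1:1334560-1334583, minus strand) and the 5′UTR of CDK9 (chr9:130548355-130548378, plus strand). The last, for contrast within 1 gene, is from the CCNE1 3′UTR region found in all lists (chr19:30314952-30314975, plus strand).
CCNE1 5′UTR: ccgcctgccgGGACtggagcgcgc
CCNL2 first exon: tgctgatcggGGACaggctgtact
CDK9 5′UTR: ggcggcggcgGGACccggagcagg
CCNE1 3′UTR: ttgacctaagGGACtcccacaaca
GGAC was searched on the RNA strand only. It was present in 77.8% of the 63 peak regions of cyclins and CDKs and in 72.8% of all 22001 regions, and in 65% of the 3071 regions of 180 to 240 nt, a length near that of the shorter regions above. A match is a description of the sequence and does not mark a methylated base.

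No cyclin or CDK changed in mRNA level after F. nucleatum at an adjusted p of 0.05. Of the 43 genes tested (25 cyclins and 18 CDKs with a mean of at least 1 FPKM), 0 passed by limma on log2(FPKM + 1) with Benjamini-Hochberg adjustment over all 11088 genes tested, of which 89 passed (0.803%). At an unadjusted p under 0.05 there were 3 (CCNI, CDK7 and CDK18), or 6.98% of the members, against 13.5% of all genes tested. The log2 fold changes ran from -0.19 to 0.27 with a median of -0.011, and the median over all genes tested was 0.0136. The median size of the change, sign aside, was 0.0661 on the log2 scale against 0.0953 for all genes, and the median standard errors were 0.088 and 0.0866. Both F. nucleatum libraries lay above both Control libraries for 10 of the 43 genes (26.1% of all genes tested) and below them for 4 (21.1% of all genes tested).

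The 95% interval of the log2 fold change lay between -1 and 1 (a 2-fold change) for all 43 genes and between -0.5 and 0.5 (1.41-fold) for 41. Its half-width was 0.126 for CCND1, the narrowest, and 0.416 for CDK14, the widest. The farthest bound of any member was 0.534 on the log2 scale, or 1.45-fold, for CCNB3. Fold changes on this scale understate the change of genes close to 1 FPKM. The remaining 4 genes of the table were below the filter: CCNA1, CCND2 and CDK15 were listed at 0 in all 4 libraries, and CCNI2 was between 0.0813 and 0.104 FPKM.

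**Figure D1:**
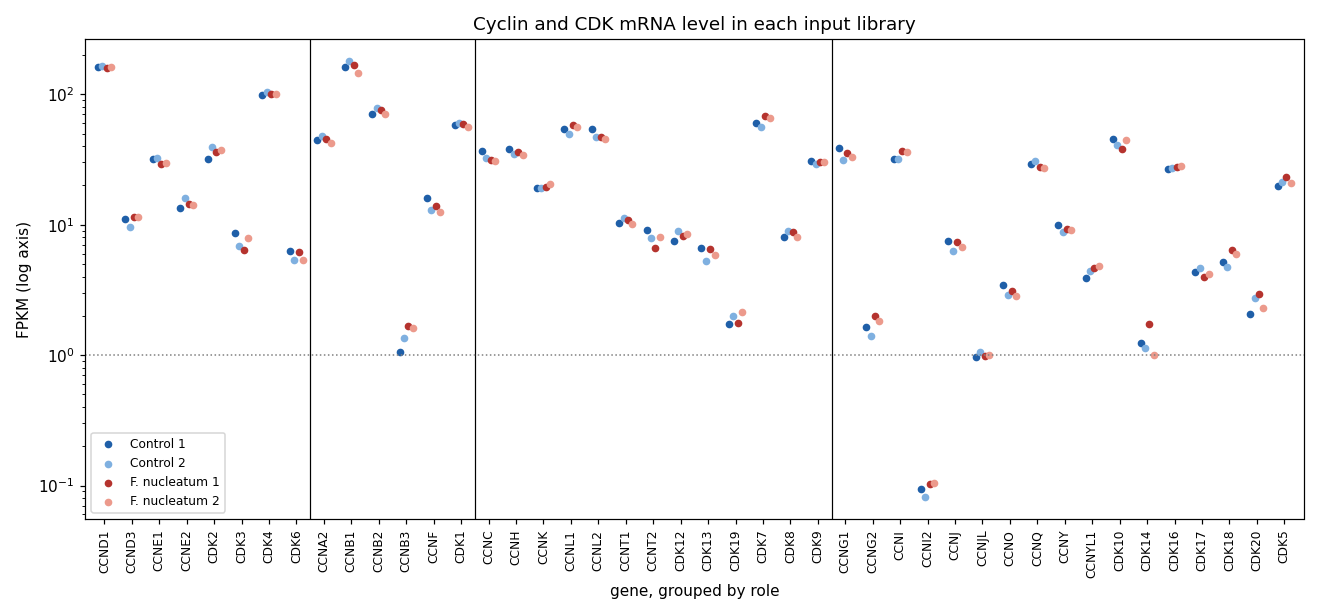
mRNA level of the 44 cyclins and CDKs above 0, in FPKM on a log axis, with 1 point per input library and genes grouped by role (from left: G1, then S, G2 and M, then transcription and splicing, then others). Points of one gene lie close together, from CCNB1 (147 to 181 FPKM) and CCND1 (159 to 166) down to CCNI2, and the dotted line marks 1 FPKM.

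Among the D-type cyclins, which carry growth signals to CDK4 and CDK6, CCND1 (ENSG00000110092, chr11:69455924-69469242, plus strand) had by far the highest level. It was at 162.3 and 165.6 FPKM in the Control libraries against 158.7 and 163.2 FPKM with F. nucleatum. The groups overlapped, with a log2 fold change of -0.03 (95% interval -0.15 to 0.10, limma adjusted p = 0.843). CCND3 (ENSG00000112576, chr6:41902672-42018095, minus strand) was at 10.99 and 9.53 FPKM in the Control libraries against 11.4 and 11.5 FPKM with F. nucleatum. Both treated values lay above both controls, but the log2 fold change of 0.14 (SE 0.088) gave a limma adjusted p of 0.506. CCND2 (ENSG00000118971) was the D-type gene listed at 0.

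The E-type cyclins activate CDK2 at the entry into S phase. CCNE1 (ENSG00000105173, chr19:30302898-30315219, plus strand) was at 31.9 and 32.5 FPKM in the Control libraries against 29.0 and 29.5 FPKM with F. nucleatum. Both treated libraries were lower, by 0.13 on the log2 scale (log2 fold change -0.13, 95% interval -0.28 to 0.01), with an unadjusted limma p of 0.0682 and an adjusted p of 0.398. CCNE2 (ENSG00000175305) was at 13.4 and 16.1 FPKM in the Control libraries against 14.5 and 14.1 FPKM with F. nucleatum. Its treated values lay between the 2 controls, with a log2 fold change of -0.04 (limma adjusted p = 0.883). Exons of INTS8 on the other strand cover 56.9% of the CCNE2 transcript, and the strandedness of the libraries is not given in the sources used here, so reads of the 2 genes cannot be told apart there.

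Of the kinase partners of these cyclins, CDK2, CDK4 and CDK6, none passed the test. CDK4 was at 98.2 and 104.9 FPKM in the Control libraries against 100.2 and 100.7 FPKM with F. nucleatum, so that the treated values lay between the controls. TSPAN31 on the other strand covers 57.8% of the CDK4 transcript. CDK2 was at 32.0 and 39.3 FPKM in the Control libraries against 36.1 and 37.3 FPKM with F. nucleatum, again with the treated values inside the control range. CDK6, the other kinase of the D-type cyclins, was far lower, at 5.34 to 6.24 FPKM over the 4 libraries. Over the 8 tested G1 genes the median log2 fold change was -0.0203, with 2 above 0 and 6 below.

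For the cyclins and the kinase of S phase, G2 and mitosis, 0 of 6 tested genes passed and the median log2 fold change was -0.0501. CCNB1, the main mitotic cyclin, had the highest mean of all members over the 4 libraries, though not over the F. nucleatum libraries alone, where CCND1 was higher. It had 162.8 and 180.9 FPKM in the Control libraries against 168.1 and 146.7 FPKM with F. nucleatum. The groups overlapped, and its log2 fold change of -0.13 (SE 0.088) had a limma adjusted p of 0.551. CDK1, the mitotic kinase, was at 58.3 and 60.3 FPKM against 59.4 and 56.5 FPKM, and CCNB2 at 70.2 and 79.1 FPKM against 75.5 and 70.2 FPKM. Both overlapped. CCNF, the F-box protein of the family that works in a ubiquitin ligase, was at 16.1 and 13.0 FPKM against 13.9 and 12.6 FPKM, which also overlapped. CCNB3, a B-type cyclin best known from meiosis, was close to the filter at 1.06 and 1.36 FPKM in the Control libraries against 1.67 and 1.62 FPKM with F. nucleatum. Its groups did not overlap, and the log2 fold change of 0.26 had an adjusted p of 0.377 by limma. With a pseudocount of 0.1 in place of 1 it was 0.42 (limma adjusted p = 0.388), above the 0.31 of CDK18.

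In the transcriptional and splicing branch, 0 of 13 genes passed and the median log2 fold change was 0.0245. CDK7, the kinase of TFIIH that also activates other CDKs, was at 60.1 and 55.8 FPKM in the Control libraries against 68.7 and 65.6 FPKM with F. nucleatum. Its groups did not overlap, with a log2 fold change of 0.21 (SE 0.065), an unadjusted limma p of 0.0193 and an adjusted p of 0.288. CCNH, its cyclin partner, was at 37.8 and 35.1 FPKM against 36.0 and 34.1 FPKM, which overlapped. CCNC, the cyclin of the Mediator kinase module, was at 36.6 and 32.6 FPKM in the Control libraries against 31.1 and 31.0 FPKM with F. nucleatum, with both treated values lower and a limma adjusted p of 0.442. The splicing-linked cyclins differed in sign and neither passed the test: CCNL1 was at 54.0 and 49.4 FPKM against 58.3 and 55.7 FPKM (log2 fold change 0.14, limma adjusted p = 0.433), and CCNL2 at 54.2 and 47.3 FPKM against 47.4 and 45.6 FPKM (-0.12, adjusted p = 0.538). CCNT2, a cyclin of the elongation kinase CDK9, had the lowest fold change of all, -0.19 (SE 0.12), but its groups overlapped at 9.16 and 7.93 FPKM against 6.65 and 8.07 FPKM. CDK12, which acts on elongation and on long DNA repair genes, was at 7.56 and 8.93 FPKM against 8.26 and 8.52 FPKM, within the control range.

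The remaining 16 tested genes have varied roles, and 0 passed. CDK18, a kinase of the PCTAIRE group, had the largest fold change of the 43 on the log2(FPKM + 1) scale: 5.20 and 4.72 FPKM in the Control libraries against 6.38 and 5.96 FPKM with F. nucleatum, or 0.27 on the log2 scale (SE 0.087), with an unadjusted limma p of 0.0247 and an adjusted p of 0.310. CCNI was nearly identical within each group, at 31.7 and 31.7 FPKM in the Control libraries against 36.6 and 35.9 FPKM with F. nucleatum, with a log2 fold change of 0.19 (SE 0.057), an unadjusted limma p of 0.0186 and an adjusted p of 0.288. CCNG2 was at 1.65 and 1.40 FPKM against 1.98 and 1.84 FPKM (0.20, limma adjusted p = 0.437, and 0.31 with a pseudocount of 0.1), and CCNYL1 at 3.93 and 4.42 FPKM against 4.67 and 4.83 FPKM (0.15, limma adjusted p = 0.494). Neither overlapped between the groups. CDK10 was at 45.7 and 41.1 FPKM against 37.7 and 44.3 FPKM, and CCNJ at 7.51 and 6.29 FPKM against 7.40 and 6.80 FPKM, and both overlapped.

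Genes that work with cyclins and CDKs were given the same reading. Of 37 partners and regulators (the RB and E2F families, CDC25 phosphatases, WEE1, CKS proteins and others), 0 passed and 5 had an unadjusted p under 0.05, which is 13.5% as over all genes. The groups did not overlap for 25 of the 37 (67.6%, against 47.2% of all genes tested), with both treated libraries higher in 13 and lower in 12. CDC25C, a phosphatase that activates CDK1, was at 9.04 and 8.31 FPKM in the Control libraries against 10.99 and 10.55 FPKM with F. nucleatum (limma adjusted p = 0.259). CDK2AP1, a CDK2-binding protein, had the lowest fold change of the list, -0.93, and Control 1 stood apart at 79.2 FPKM against 24.9 in Control 2 and 22.5 and 23.4 FPKM with F. nucleatum. Of 16 S phase genes, 0 passed, 5 had an unadjusted p under 0.05 (31.2%) and the median log2 fold change was -0.131. Both treated libraries were below both controls in 9 of them (21.1% of all genes tested) and above in 1 (26.1%), and among the 9 was MCM5, a subunit of the replicative helicase, at 74.9 and 75.2 FPKM against 60.1 and 64.4 FPKM (limma adjusted p = 0.203). Of 16 G2 and M genes, 0 passed, 1 had an unadjusted p under 0.05 (AURKB, a mitotic kinase, with an adjusted p of 0.329 by limma) and the median was -0.0446.

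m6A peaks were called on 33 of the 43 tested genes (76.7%), against 83.9% of all genes tested, and in all 4 lists on 25 (58.1% against 68.7%). The lists held 54 and 53 peaks on cyclins and CDKs in Control and 58 and 51 in F. nucleatum, or 53.5 ± 0.707 and 54.5 ± 4.95 (SD, n = 2). The difference of 1.0 peak was smaller than the spread between the F. nucleatum lists. They fell on 30 and 31 members in Control and on 31 and 31 in F. nucleatum. Single genes were not tested, since 2 lists against 2 allow no two-sided exact permutation p below 0.333. A call reflects reads as well as methylation, and peaks were not counted as a methylation level.

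The 10 tested genes with no peak in any list included highly expressed genes: CCNB2 (mean 73.7 FPKM), CDK1 (58.6), CCNA2 (44.9) and CCNH (35.8). CCND3 (10.8 FPKM) and CCNE2 (14.5 FPKM) had none either, so that of the D- and E-type cyclins CCND1 and CCNE1 carried all the peaks. Among members at 10 FPKM or more, 72% had a peak, against 84.3% of all tested genes at that level. At 1 to 10 FPKM the shares were near each other, 83.3% of members and 83.6% of all tested genes. The most peaks over the 4 lists were on CCND1, CCNF, CCNL2 and CDK12: CCND1 had 4 and 4 in the Control lists against 5 and 3 with F. nucleatum, and CCNF had 4 in each.

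Peaks that shared at least 1 base on the same strand were joined into regions, 63 for the cyclins and CDKs. Of these, 38 (60.3%) were found in all 4 lists, against 51.5% of all regions, and 12 (19%) in a single list, against 25.6%. Of the 57 regions that could be placed on a canonical transcript, 8 (14%) had their midpoint in the 5′UTR, 18 (31.6%) in the coding sequence, 12 (21.1%) within 100 nt of the stop codon and 19 (33.3%) further into the 3′UTR. The shares over all placed regions were 4.91%, 45.2%, 15.9% and 33.9%.

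Lost regions, with a peak in both Control lists and in neither F. nucleatum list, numbered 2 on cyclins and CDKs (3.17%, against 2.64% of all regions). There was 1 gained region, the reverse (1.59%, against 2.38% of all regions). With 2 lists a group no test was made. Among peaks at a deposited p of at most 1e-05, 3 of 45 regions were lost (6.67%, against 2.59% of all such regions) and 2 gained (4.44%, against 2.25%).

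The lost regions were on CCNE1 and CCNL2, both at the start of the transcript. The CCNE1 region (chr19:30302931-30303627, 208 nt in 3 exon blocks, GC content 78.8%) lay mostly in the 5′UTR and reached into the coding sequence. It was called at a deposited p, the peak caller's own value, of 2e-05 in Control 1 and 0.00074 in Control 2. It holds 3 GGAC. The CCNL2 region (chr1:1334513-1334722, minus strand, GC content 71.4%) lay in the first exon, mostly in the coding sequence, and was called at a deposited p of 2.8e-10 and 2.8e-06 in Control. The gained region was in the 3′UTR of CCNJ (chr10:97819216-97819426, GC content 33.6%, no GGAC), at a deposited p of 4.7e-05 and 4.9e-05 in F. nucleatum. All 3 genes kept other regions in all 4 lists. Of these 3 regions, only that of CCNL2 met the stricter p of at most 1e-05. The other regions lost at that p were at the start of the CCND1 and CDK9 transcripts. The regions gained at that p were in the 3′UTR of CDK16 and over the stop codon of CDK18. In these regions the stricter p removed calls of the other group.

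**Figure D2:**
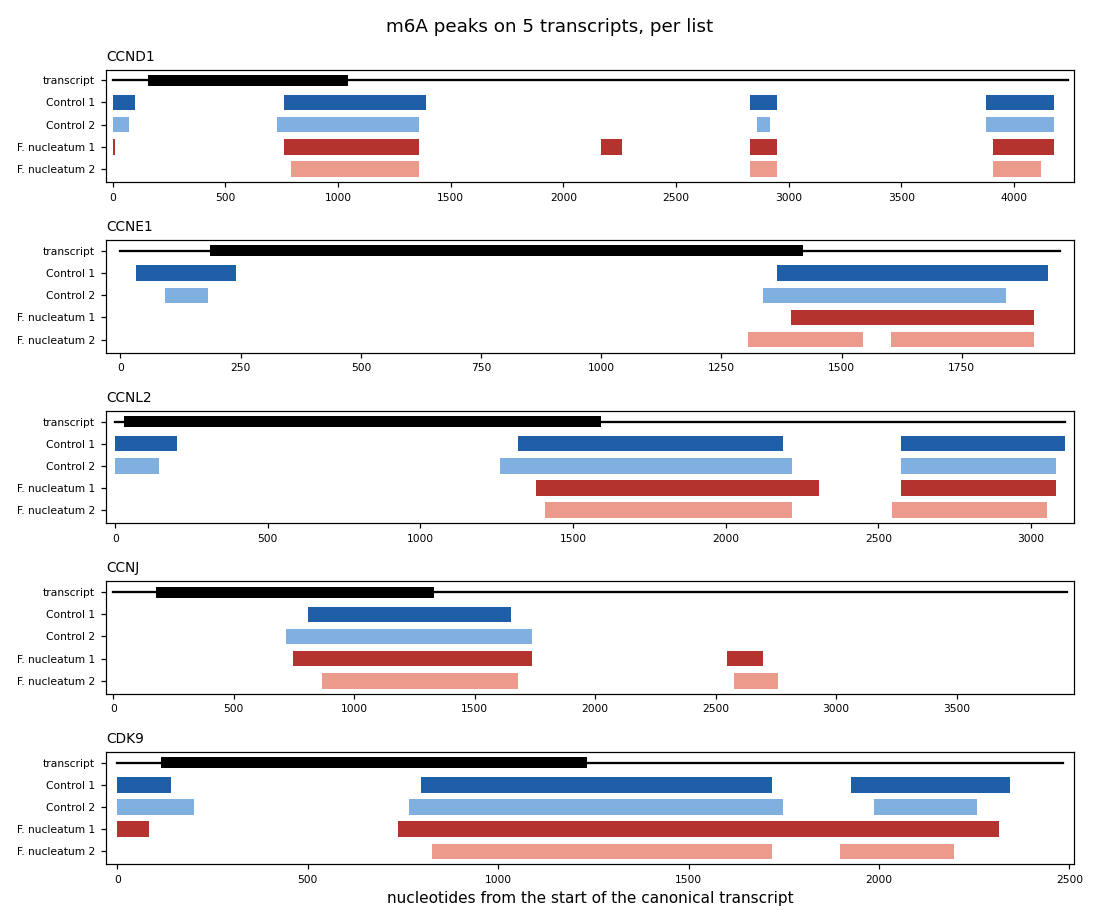
Peaks of each list on the canonical transcripts of CCND1, CCNE1, CCNL2, CCNJ and CDK9, in nucleotides from the transcript start. The thick black bar is the coding sequence, and peak bases off the transcript are not drawn. At the left end, the CCNE1 and CCNL2 peaks appear in both Control rows only and those of CCND1 and CDK9 in every row but F. nucleatum 2, while the CCNJ peak in the 3′UTR appears in the F. nucleatum rows only.

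Regions at the start of the transcript were then collected for all members, a grouping made after the values above were seen. Of the 63 regions, 11 touched the first 300 nt of the canonical transcript (CCND1, CCNE1, CCNI, CCNK, CCNL1, CCNL2, CDK6, CDK8, CDK9, CDK12 and CDK18), with a median GC content of 66.7%. Control 1 called 8 of them, Control 2 9, F. nucleatum 1 5 and F. nucleatum 2 2 (CCNK and CCNL1). Over all 3624 such regions the same lists called 73.1%, 81.6%, 72.6% and 65.7%. Of the 11 member regions, 2 were in all 4 lists (18.2%, against 52.5% of all such regions). Those of CCNI, CDK6, CDK8 and CDK18 were each called in 1 Control list only, at a deposited p of 0.00026 (CCNI) to 0.0037 (CDK18). The limit of 300 nt left out another 5′UTR region of CDK8 (chr13:26828601-26828721), called in F. nucleatum 2 only, at a deposited p of 0.00031. The CCND1 region (chr11:69455873-69456023) went from a deposited p of 9.5e-09 and 2.1e-10 in Control to 0.0052 in F. nucleatum 1 and no call in F. nucleatum 2. The CDK9 region (chr9:130548305-130548513) went from 2e-07 and 2.5e-21 to 0.00017 and no call. Since the 2 F. nucleatum lists differ in these calls, and the regions were picked on their values, no test was made. By the rough estimate F. nucleatum 2 also had the shallowest input, and the part of depth in these calls was not tested.

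The deposited p could be ordered between lists for 37 of the 38 regions in all 4 lists. In the stop codon region of CCNL1 it was listed at 0 in every list. The p was larger (weaker) in both F. nucleatum lists than in both Control lists for 8 regions (21.1% of the 38, against 18.9% of all regions in 4 lists) and smaller in both for 7 (18.4%, against 15.7%). The groups overlapped for 22. A p of this kind moves with sequencing depth and with the level of the mRNA as well as with enrichment.

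CCND1 held 3 regions in all 4 lists. Over its stop codon (chr11:69458757-69466393, 660 nt in 3 exon blocks, 5 GGAC), the deposited p was 1e-101 and 1e-119 in the Control lists against 1e-121 and 5e-86 with F. nucleatum, which overlapped. In the middle of the 3′UTR (chr11:69467833-69467953) it was 5e-14 and 0.00021 against 1e-13 and 3.4e-09, which overlapped as well. Near the 3′ end (chr11:69468882-69469182) it was 6.3e-61 and 2e-34 in the Control lists against 1.3e-21 and 5e-14 with F. nucleatum, so that both treated values were weaker. The GC content of this region was 63.8% and the mRNA level of the gene overlapped between the groups. The part of either was not tested. The CCNE1 region over the end of the coding sequence and the 3′UTR (chr19:30314572-30315194) was also weaker, at 6.3e-40 and 5e-24 against 2e-18 and 5e-23, though Control 2 and F. nucleatum 2 differed by a factor of 10 only.

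The other weaker regions were on CCNF (the region nearest the 3′ end), CCNL1 (first exon), CCNL2, CCNO, CCNQ and CDK10. Some of these orders were narrow. For CCNF the deposited p was 2e-10 in Control 1 and 4.7e-10 in F. nucleatum 1. For CCNO it was 3.2e-28 in Control 2 and 1e-27 in F. nucleatum 2. The 3′UTR region of CDK10 was among the strongest of all members, at a deposited p of 1e-279 and 1e-222 in the Control lists against 1e-191 and 1e-129 with F. nucleatum, and that of CCNL2 was at 1e-269 and 1e-250 against 1e-185 and 1e-170. The stronger regions were on CCNB1, CCNK, CCNYL2, CDK4, CDK7 and CDK16 (2 regions). The CDK16 regions were weak calls with narrow orders. In its 3′UTR the deposited p was 4.4e-05 and 0.00012 in the Control lists against 2.5e-06 and 9.1e-06 with F. nucleatum. The other CDK16 region was at 0.00083 and 0.0013 against 0.00026 and 0.00036. That region and the one of CCNYL2 were not placed on a canonical transcript. For CDK4 (chr12:58141988-58142287, minus strand) the deposited p was 4e-17 and 1.3e-20 in the Control lists against 1.6e-27 and 6.3e-29 with F. nucleatum, and for CCNB1 (chr5:68470725-68470903) 2.5e-10 and 5e-14 against 3.2e-23 and 6.3e-15. Exons on the other strand cover 57.8% of the CDK4 transcript (TSPAN31) and 84.8% of that of CCNK (CCDC85C). With strandedness not given, reads of these regions may come from either gene.

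GC content and mRNA level tended to go with the order of p, on few member regions. The 8 weaker regions had a median GC content of 56.8% (51.4% to 65.8%) and the 7 stronger ones 41.9% (35.9% to 61.8%), so the ranges overlapped. Over all regions in 4 lists these medians were 57% for 2141 weaker and 47% for 1780 stronger regions. The mRNA log2 fold change was below 0 for 7 of the 8 weaker regions, CCNL1 being the exception. It was above 0 for 4 of the 6 stronger regions of tested genes, 2 of them on CDK16. Some of these fold changes were close to 0, such as -0.03 for CCND1 and -0.01 for CDK4. Over all regions of tested genes, it was below 0 for 65.8% of the weaker and 34.3% of the stronger. The part of GC content, depth and mRNA level in these orders was not tested.

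**Figure D3:**
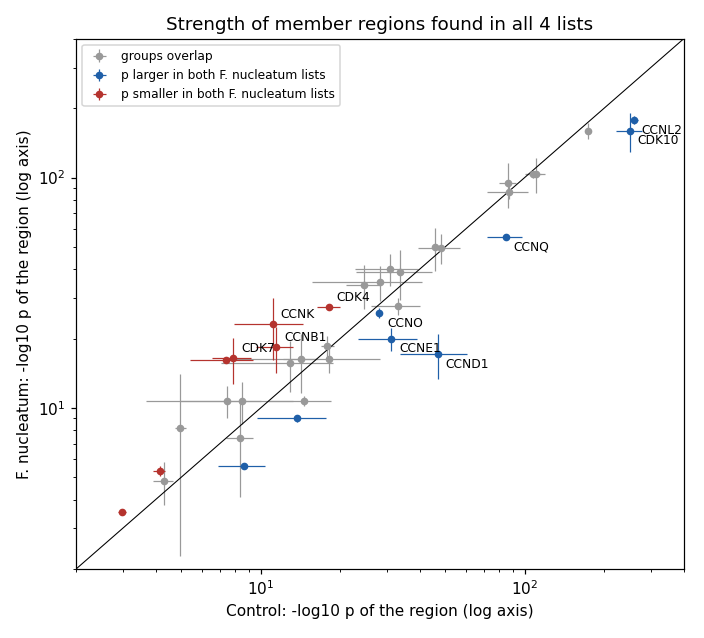
Deposited p of the regions in all 4 lists as -log10 p on log axes, with the Control mean across and the F. nucleatum mean up, and bars from the lower to the higher list of each group. The CCNL1 region listed at 0 is left out. The 8 blue regions, weaker in both F. nucleatum lists, lie below the line of equal values, the 7 red ones above it, and the 22 grey ones have overlapping groups.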

How the data were processed

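The authors trimmed reads, aligned them to hg19 with HISAT2 2.1.0, and computed the deposited FPKM of the 4 input libraries with StringTie. The deposited peak lists, 1 per replicate, give for each peak exon blocks, a gene name and a score between 0 and 0.012, read here as the authors' p-value from the peak caller. The methods name MACS2, whereas the layout is that of exomePeak, and the program was not settled.

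Groups and replicate numbers came from the sample labels. Genes whose FPKM averaged 1 or more over the inputs were tested on log2(FPKM + 1) with limma 3.58.1 (trend, no block, R 4.3.3), since FPKM are not counts, with Benjamini-Hochberg adjustment over all genes tested, and the script was tested on simulated data. FPKM correct for no GC-dependent recovery. Regions, coordinates (1-based) and motifs were computed with Python 3.11.15 and pysam 0.24.0. Transcripts came from GENCODE release 44 mapped to GRCh37, and a region was placed when at least 90% of its bases lay on the canonical transcript. Of the tested members, 10 share exon bases with another gene.

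Members and lists were chosen with earlier results of these data known. Genes named by rule were CCND1 to CCND3, CCNE1 and CCNE2, called genes, genes with a lost or gained region, the 10 largest fold changes, the 5 cyclins and 5 CDKs highest in FPKM and the 5 members with most peaks. Other names were added after their values were seen. The alternatives were another pseudocount, no filter, quantile normalization, no trend, a replicate block, GC correction, a stricter p, a stricter overlap and leaving out each library.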

Additional observations from a re-analysis of the deposited data

How the results depend on the processing

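No cyclin or CDK was called under any of the 10 alternatives to the expression test. The count of all genes called, 89, was 40 with no filter on low values and 17 to 324 when 1 library was left out (324 without Control 2, 172 without Control 1, 25 without F. nucleatum 1 and 17 without F. nucleatum 2). With the replicate block it was 90, with 0 members. The deviations of same-numbered libraries had a correlation of 0.0243 over genes with 2 pairs, so the numbers were not taken to pair the libraries. The members' median log2 fold change, -0.011, ran from -0.0149 to 0.0197 when 1 library was left out, so its sign is not settled. Of 230 values for single named genes, 12 in 9 genes turned sign. For CDK12 the fold change was -0.0047 with GC correction. Over the fits that leave out 1 library, the fold change ran from -0.26 to 0.02 for CCNF, from -0.081 to 0.13 for CDK12, from -0.095 to 0.19 for CDK2, from -0.12 to 0.051 for CCNB2, from -0.16 to 0.084 for CCNE2, from -0.073 to 0.15 for CCNJ, from -0.062 to 0.033 for CDK4, from -0.19 to 0.033 for CDK10 and from -0.069 to 0.00077 for CDK1. Lost regions were 3 with the stricter p (6.67%, against 2.59% of all regions) and 2 with the stricter overlap (2.38%, against 2.61%), and ran from 2 to 5 when 1 list was left out. Gained regions were 2 with p of at most 1e-05, 2 with a reciprocal overlap of 50%, and 2 to 5 when 1 list was left out. Without Control 1, Control 2, F. nucleatum 1 and F. nucleatum 2 in turn, there were 5, 4, 5 and 2 lost and 2, 2, 5 and 4 gained regions, where 1 list fewer has to agree. The lost shares were then 8.2%, 6.45%, 8.2% and 3.28%, against 11.3%, 8.74%, 6.93% and 4.44% of all regions, and the gained shares 3.28%, 3.23%, 8.2% and 6.56%, against 4.31%, 6.6%, 8.26% and 11.3%. For the other changed values the cause was not tested. The depth of the IP libraries was unknown, so no detection limit for peaks was set.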
